A study of Schmidtea mediterranea with 177 samples.

Results

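The comparison set 11 muscle cells against 11 non-muscle cells from the head tip of the asexual planarian *Schmidtea mediterranea*. The 22 cells are those of region 1 of the anterior-posterior axis, out of 177 single cells from 10 regions, and each was taken as muscle or non-muscle as its label in the series says. All animals were of the CIW4 strain, intact and untreated, and had been starved for 7 to 14 days. Midline tissue of each region was dissociated, and Hoechst-stained cells in the 2N gate, taken as non-dividing, were sorted singly and amplified with SmartSeq2, a full-length poly(A) cDNA method. Cells whose cDNA was positive by qRT-PCR for a muscle *collagen* or *troponin* were sequenced, so all 22 cells, the non-muscle cells included, carry the label of having passed that screen. The authors assigned the classes afterwards, from a principal component analysis of the sequenced cells and *troponin* expression. No animal, plate or day is named for a cell, so that the 11 cells of a class count as 1 sample. The classes were also chosen from expression in these same cells. For both reasons no test was run, and the values below are a description of these 22 cells.

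Planarian muscle cells contract and also carry positional information: they transcribe genes that encode Wnt ligands, Wnt inhibitors, Frizzled receptors, FGF receptor-like (FGFRL) proteins and transcription factors in regional patterns along the body. Such genes are called position control genes, and those with regional expression in muscle are called mRGs here, for muscle regionally expressed genes. The head tip lies at the anterior end, around the anterior pole, where Wnt inhibitors are transcribed. Epidermal cells are replaced all the time from neoblasts, the dividing stem cells, through a series of postmitotic progenitors that move outwards. In a dissected head tip, postmitotic cells of the epidermal lineage, neurons and muscle can therefore all pass a gate for non-dividing cells.

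The levels below are reads summed over the cells of a class and given in cpm, reads of a transcript per 1000000 reads of that class, 3636983 reads for muscle and 3547129 for non-muscle cells. Intervals of levels are exact Poisson 95% intervals and those of shares of cells exact binomial 95% intervals. Both cover counting error only, because neither the variation between animals nor the amplification of cDNA without molecular identifiers is in them. A cell was taken to express a transcript when it held over 2 reads of it. Muscle cells had 78163 to 596424 reads with a median of 319727, and non-muscle cells had 82186 to 904349 with a median of 252828. Expressed transcripts numbered 3624 ± 602.98 per muscle cell and 4313 ± 889.9 per non-muscle cell (SD, n = 11 cells each). After each cell was thinned at random to 50000 reads, the lowest, the median and the highest cell expressed 1998, 2515 and 2735 transcripts in muscle, against 1534, 2855 and 3079 in non-muscle cells, so the classes overlapped at equal depth.

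A few cells, r01_453, r01_400 and r01_430, stood apart from others of their class. Non-muscle cell r01_453 had a median Spearman correlation of 0.19 with the other non-muscle cells and of 0.23 with the muscle cells, over the 9586 transcripts compared, whereas the median over all pairs was 0.29 within muscle, 0.37 within non-muscle and 0.16 between the classes. Muscle cells r01_400 and r01_430 had the highest summed muscle markers and the lowest summed neoblast markers of the muscle cells. These cells were singled out after their values were seen. The labels number the cells, and the numbers form a range from r01_370 to r01_441, with 8 muscle and 3 non-muscle cells, and another from r01_453 to r01_525, with 3 muscle and 8 non-muscle cells. What these ranges stand for is not stated, and they run partly along with the classes, so values within each range are given where they differ.

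Of 26560 transcripts, 9586 had more than 2 reads in at least 3 of the 22 cells and were compared. At least 4-fold higher in muscle were 1792 of them (18.7% of those compared), and at least 4-fold higher in non-muscle cells were 1789 (18.7%), on the scale log2((muscle cpm + 1)/(non-muscle cpm + 1)). The median log2 ratio over all 9586 was 0.22. A ratio past 4-fold was thus common, and in many transcripts it came from few cells. A stricter description asks that the lowest cell of one class lie above the highest cell of the other, which held for 29 transcripts higher in muscle (0.303%) and 18 higher in non-muscle cells (0.188%). Without cell r01_453 the numbers were 36 and 131, so that this 1 cell held the count on the non-muscle side down.

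The 12 muscle markers, which the authors drew from the first principal component of these and the other cells, were all at least 4-fold higher in muscle (18.7% of all compared transcripts were), with a median log2 ratio of 9.79, against 0.22 for all transcripts. Since the list was chosen partly on these cells, it checks the labels and is not independent evidence. In 9 of the 12, the muscle and non-muscle cells did not overlap, as in 0.303% of all compared transcripts. Collagens took up 6 of the 12 contigs. *COL4A6* (dd_Smed_v4_2197), named after its best human match, a basement membrane collagen, had 3508 cpm in muscle, against 1.41 cpm in non-muscle cells (intervals 3448 to 3569.8 and 0.458 to 3.29), and its lowest, median and highest cells were at 1147, 2943 and 6837 cpm in muscle, against 0, 0 and 10.9 cpm in non-muscle cells. *COL24A1* (dd_Smed_v4_402), a match to a fibrillar collagen, had 705, 1687 and 17368 cpm in muscle cells, against 0, 0 and 6.94 cpm in non-muscle cells. Muscle cells r01_400 and r01_430 were far above the other 9 here, at 17368 and 16395 cpm, while the others lay between 705 and 3781 cpm. Without these cells the summed level of *COL24A1* in muscle was 1923 cpm instead of 6499.9, and that of *COL1A2* (dd_Smed_v4_832) was 947 instead of 4499 cpm, which is still far above the 1.13 and 1.41 cpm in non-muscle cells.

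*TNNI2* (dd_Smed_v4_323), which encodes the thin filament protein troponin I, had 1543 cpm in muscle, against 38.9 cpm in non-muscle cells, a 39.7-fold difference (interval 33.5 to 47.3). It was expressed in 11 of 11 muscle cells and 8 of 11 non-muscle cells, and the lowest, median and highest cells had 97.8, 1339 and 2894 cpm in muscle, against 0, 37.2 and 353 cpm in non-muscle cells, so that the ranges overlapped. The non-muscle cells without *TNNI2* were the 3 numbered r01_421, r01_431 and r01_441, and all 8 numbered r01_453 to r01_525 had it. At 50000 reads per cell it was expressed in 11 muscle and 4 non-muscle cells. *DjMHC-B* (dd_Smed_v4_2381), a myosin heavy chain, had 342 cpm in muscle, against 7.61 cpm in non-muscle cells, or 2.36 cpm in non-muscle cells without r01_464, and *FLNA* (dd_Smed_v4_810), an actin crosslinker, had 1430.3 and 2.82 cpm. *CNN3* (dd_Smed_v4_450), which matches the actin-binding protein calponin, was expressed in 10 of 11 muscle cells and 0 of 11 non-muscle cells. The summed level of the 12 markers was 14181 to 72797 cpm in single muscle cells, against 4.86 to 377.2 cpm in non-muscle cells.

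**Figure D1:**
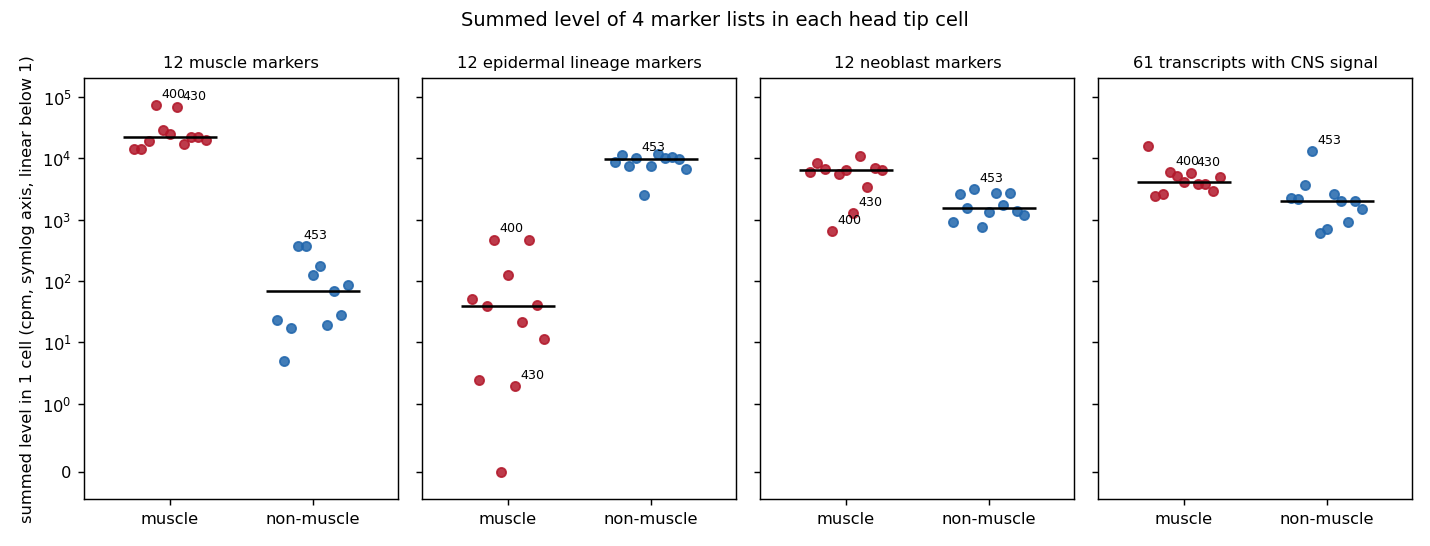
Summed level of 4 marker lists in each of the 11 muscle (left, red) and 11 non-muscle cells (right, blue) of the head tip, in cpm on a symlog axis that is linear below 1, with lines at the class medians and cells r01_400, r01_430 and r01_453 numbered. Muscle cells lie between 14181 and 72797 cpm of muscle markers and non-muscle cells between 2519 and 11606 cpm of epidermal lineage markers, with no overlap in either list, whereas the neoblast and CNS lists overlap.

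By the 12 epidermal lineage markers, the non-muscle cells of the head tip were nearly all of that lineage. The list by epidermal in situ signal did not set them apart, with 6 of 14 compared at least 4-fold higher in muscle and 4 in non-muscle cells (18.7% of all compared transcripts each way). All 12 epidermal lineage markers, the other end of the same principal component and so equally bound to the choice of classes, were at least 4-fold higher in non-muscle cells (18.7% of all compared transcripts were), with a median log2 ratio of -8.72. Of the 11 non-muscle cells, 10 expressed at least 11 of the 12, and muscle cells expressed at most 2. *P53* (dd_Smed_v4_5563), whose planarian homologue is transcribed in postmitotic epidermal progenitors, had no read in any muscle cell and 892 cpm (interval 861 to 923) in non-muscle cells, at least 1081-fold higher in non-muscle when the muscle sum is set at 3 reads. It was expressed in 10 of 11 non-muscle cells, with 0, 774 and 2079 cpm in the lowest, median and highest cell. *ZFP-1* (dd_Smed_v4_2946), a zinc finger gene needed in planarians to make the epidermal lineage, was expressed in 0 of 11 muscle cells and 10 of 11 non-muscle cells, at 0.275 and 502.7 cpm. *VIL1* (dd_Smed_v4_929), a match to the microvillus protein villin, had no muscle read and 10, 365 and 909.6 cpm in the lowest, median and highest non-muscle cell, so that it was present in every one of them. *FABP7* and *COTL1* likewise had no read in muscle cells. *EPB41L2* (dd_Smed_v4_2032), a match to a membrane skeleton protein, had the smallest ratio, with 78.9 cpm in muscle, against 633 cpm in non-muscle cells, and 97.2% of its muscle reads came from cell r01_400. Without cells r01_400 and r01_430 its level in muscle was 3.17 cpm.

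The exception among the non-muscle cells was cell r01_453. It expressed 5 of the 12 epidermal lineage markers and none of *P53*, *ZFP-1*, *FABP7*, *SPTBN1*, *ZFHX3* and *EPB41L2*, and its summed level of 10148 cpm came mostly from the actin contig *ACTG1* (dd_Smed_v4_246), at 8188 cpm, and *beta-actin* (dd_Smed_v4_285), at 1237 cpm. Its level of the 61 transcripts with signal in the central nervous system (CNS) by in situ hybridization was 13156 cpm, above the 596.2 to 3636 cpm of the other non-muscle cells. The protocadherin *PCDH1* (dd_Smed_v4_14344) had 2113 cpm in this cell and no read in the other 21, and the ankyrin *ANK2* (dd_Smed_v4_10835) had 4171 cpm, against 32.7 cpm in the next highest non-muscle cell. These 2 genes were chosen after their values were seen. The cell also expressed 7 of the 12 neoblast markers but not *SMEDWI-1*, and 2 of the 12 muscle markers.

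The neoblast markers, which the authors drew from the second principal component and so from these cells too, were higher in muscle cells, some of them without a read in non-muscle cells. Of the 12, 11 could be compared, 7 were at least 4-fold higher in muscle and none in non-muscle cells (18.7% of all compared transcripts each way), and the median log2 ratio was 4.78. Of the 11, 2 had no read in non-muscle cells and so passed the filter through muscle cells alone. Without r01_453, 9 of 11 were at least 4-fold higher in muscle. *SMEDWI-1* (dd_Smed_v4_659), the PIWI gene transcribed in neoblasts, had 790.2 cpm in muscle cells (interval 761.6 to 819.6) and 0.846 cpm in non-muscle cells (0.174 to 2.47, from 3 reads). It was expressed in 8 of 11 muscle cells (72.7%, interval 39% to 94%) and in 0 of 11 non-muscle cells, which allows a share of up to 27.3% when a count of 0 is set at 3 cells, and the counts were the same at 50000 reads per cell. The 3 muscle cells without it were r01_400, r01_430 and r01_463. *FBN2* (dd_Smed_v4_2649), a match to the matrix protein fibrillin, was expressed in 6 muscle cells at 0, 51.2 and 1566.2 cpm (lowest, median and highest) and had no read in non-muscle cells. *BRULI* (dd_Smed_v4_2592), an RNA-binding protein needed for neoblast maintenance, had 492.99 cpm in muscle, against 7.33 cpm in non-muscle cells, in 7 and 2 cells. Without r01_440 its muscle level was 287 cpm, and without r01_473 its non-muscle level was 2.89 cpm. *GST-1*, a glutathione transferase, had 390.2 and 13.3 cpm, with 97.9% of the non-muscle reads in r01_453 and a muscle level of 231 cpm without r01_380, and *CBFB* 220.0 and 3.1 cpm.

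Some of the list is not known for neoblasts in particular: *XIRP2*, named after an actin-binding protein of vertebrate muscle, had 286 cpm in muscle, against 44.5 cpm in non-muscle cells, or 16.6 cpm in non-muscle cells without r01_453, and the second *beta-actin* contig (dd_Smed_v4_1610) was expressed in 8 of 11 muscle cells and 0 of 11 non-muscle cells.

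Not all neoblast markers set the classes apart. *RKHD1*, *KHD-1*, *HMB-1* and *JUNLI-1*, named here although they did not reach 4-fold, were expressed on both sides. *RKHD1* (dd_Smed_v4_1999) was expressed in 9 of 11 muscle cells and 11 of 11 non-muscle cells, with 0, 1702 and 3356 cpm in the lowest, median and highest muscle cell, against 438, 914 and 1979 cpm in non-muscle cells. *KHD-1* (dd_Smed_v4_294) was expressed in all 22 cells, at 643 and 368 cpm. The summed level of the list overlapped between the classes, with 656 to 10894 cpm in muscle cells, against 754 to 3168 cpm in non-muscle cells. The 2 lowest muscle cells were r01_400 at 656 cpm and r01_430 at 1291 cpm, and the next was r01_463 at 3390.3 cpm. Without cells r01_400 and r01_430, the level of *SMEDWI-1* in muscle was 1137 cpm. Within the cells numbered r01_370 to r01_441 it was 755 cpm in muscle and 2.11 cpm in non-muscle cells, and within r01_453 to r01_525 it was 919 and 0.385 cpm.

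**Figure D2:**
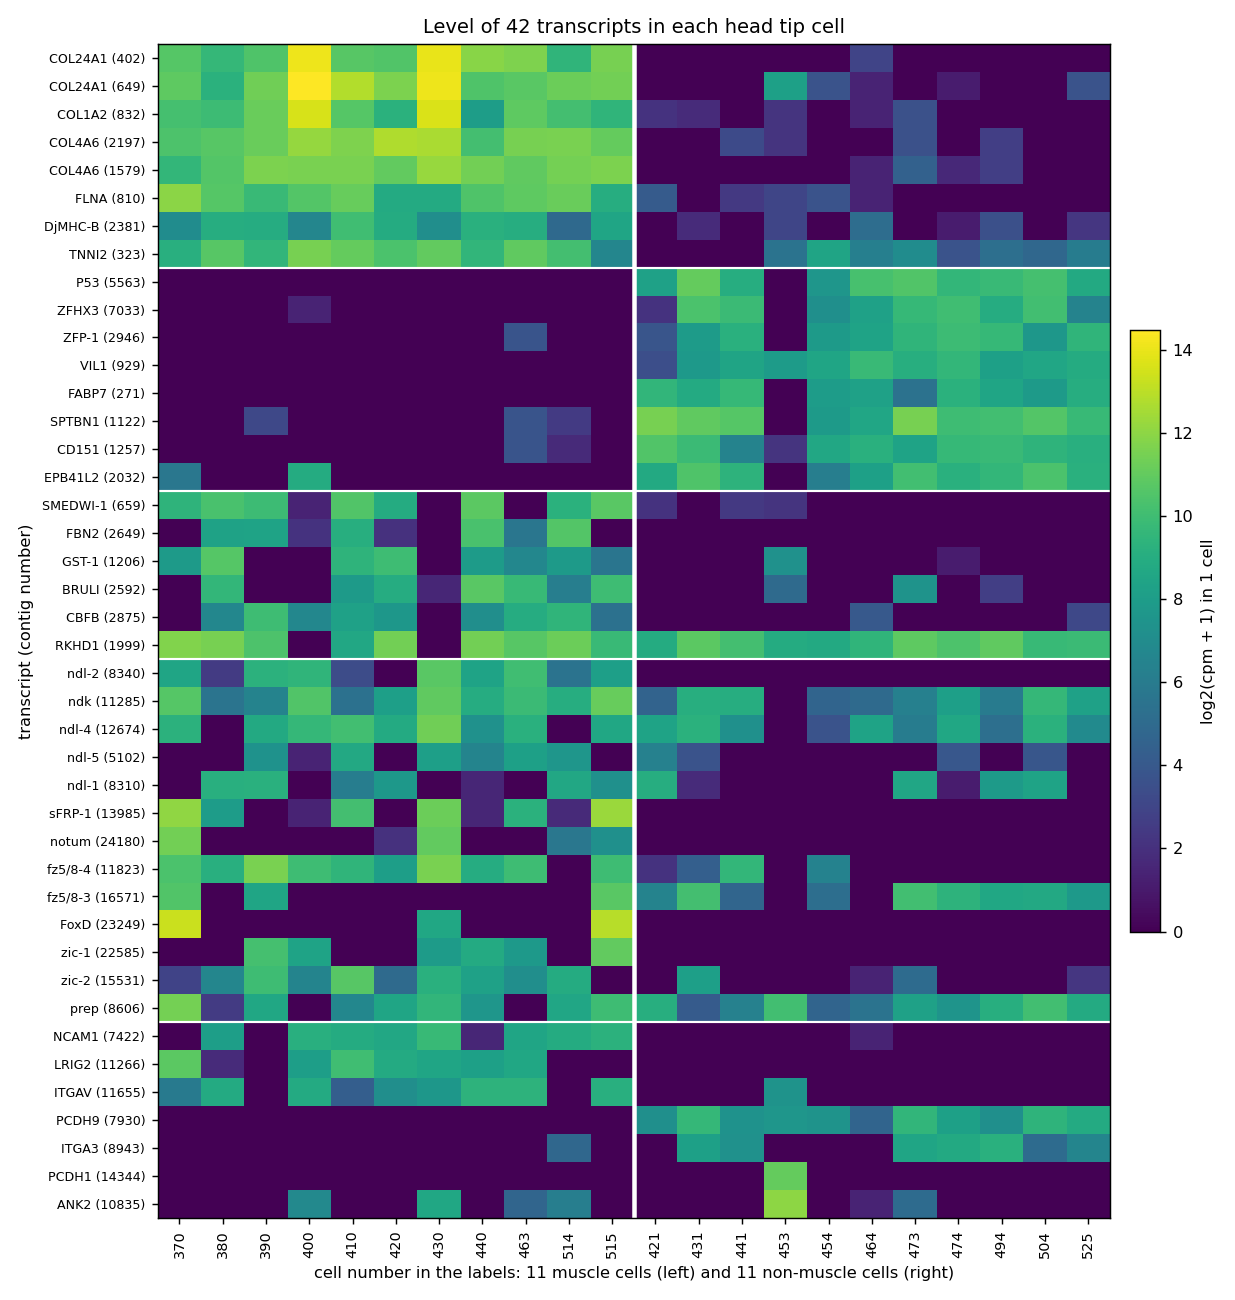
Level of 42 transcripts in each cell, as log2(cpm + 1), with the 11 muscle cells left and the 11 non-muscle cells right of the vertical line and transcripts ordered by group (muscle, epidermal lineage, neoblast, position control, adhesion and CNS). The muscle block is filled in all 11 muscle cells and the epidermal block in all non-muscle cells except r01_453, while *SMEDWI-1* has over 2 reads in 8 muscle cells and in no non-muscle cell, and *ndk*, *ndl-4*, *fz5/8-3* and *prep* are seen on both sides.

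Most mRGs that the head tip expressed were higher in its muscle cells, but not all. Of the 44 mRGs, 43 were in the table and 21 could be compared, of which 14 were at least 4-fold higher in muscle, none was at least 4-fold higher in non-muscle cells (18.7% of all compared transcripts each way) and 7 were within 4-fold. In none of the 21 did the cells of both classes stay fully apart. Of the 14, 6 had no read in non-muscle cells, and *wnt2* and *DNAJB13* were expressed in none of these cells. These mRGs passed the filter through muscle cells alone. The authors sought mRGs by comparing muscle cells along the body, the head tip muscle cells included. The list thus rests on expression in muscle, and its count is not independent evidence of a difference from non-muscle cells. Without r01_400 and r01_430, 10 of 18 were at least 4-fold higher in muscle. Among the cells numbered r01_370 to r01_441 it was 9 of 19, with 1, *fz5/8-3*, at least 4-fold higher in non-muscle cells, and among r01_453 to r01_525 it was 8 of 13 with none. Among the 16 mRGs with an anterior pattern by in situ hybridization, 10 were at least 4-fold higher in muscle and 6 within 4-fold, and a muscle cell expressed 6 to 14 of them (median 9), against 2 to 8 (median 5) in a non-muscle cell. Of the 20 with a posterior pattern 1, *IGFALS*, was expressed in enough cells to be compared. Each compared mRG was thus expressed by some of the 11 muscle cells, and the share of cells varied from gene to gene, as the plot of shares by mRG shows.

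FGFRL proteins resemble FGF receptors without the intracellular kinase, and in planarians *nou-darake* (*ndk*) keeps brain tissue in the head. *ndl-2* (dd_Smed_v4_8340) was expressed in 8 of 11 muscle cells (72.7%, interval 39% to 94%) and had no read in the 11 non-muscle cells, with lowest, median and highest muscle cells at 0, 336 and 1752 cpm and a summed level at least 590.7-fold higher in muscle when the non-muscle sum is set at 3 reads. Cell r01_430 gave 49.5% of its reads, and without cells r01_400 and r01_430 the level in muscle was 194 instead of 499.6 cpm. *ndk* (dd_Smed_v4_11285) was expressed in 11 of 11 muscle cells and 9 of 11 non-muscle cells, with 41.9, 522.1 and 2212 cpm in the lowest, median and highest muscle cell, against 0, 76.4 and 797 cpm in non-muscle cells. The level in muscle was 3.73-fold higher (interval 3.47 to 4.02), and the ranges overlapped. Without r01_400 and r01_430 the muscle level was 604 instead of 944 cpm. At 50000 reads per cell *ndl-2* was expressed in 7 muscle and 0 non-muscle cells and *ndk* in 10 muscle and 7 non-muscle cells. *ndl-4* (dd_Smed_v4_12674), an anterior tip gene, was expressed in 9 cells of each class and had 703 cpm in muscle and 310.1 cpm in non-muscle cells. Its muscle reads came to 51.2% from cell r01_430, and without cells r01_400 and r01_430 the levels were 304 cpm in muscle and 310.1 cpm in non-muscle cells, so that the levels were nearly equal. *ndl-1* had 168 cpm in muscle, against 86.5 cpm in non-muscle cells, in 6 and 4 cells, and *ndl-5* had 114 and 12.7 cpm, in 6 and 4 cells. Without r01_421 the non-muscle levels were 47.7 cpm of *ndl-1* and 6.47 cpm of *ndl-5*. *ndl-3*, a pre-pharyngeal gene, was expressed in 1 muscle cell, r01_514, and had no read elsewhere. Cell r01_453 had no read of any of the 6 FGFRL genes.

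Of 7 compared genes of the Wnt pathway, 6 were at least 4-fold higher in muscle (18.7% of all compared transcripts were), and the exception was a receptor. Of the 7, 2 had no read in non-muscle cells and *wnt2* was expressed in none of them, so these passed the filter through muscle cells alone. Without r01_400 and r01_430 it was 4 of 6. Within r01_370 to r01_441 it was 4 of 6, with 1 at least 4-fold higher in non-muscle cells, and within r01_453 to r01_525 it was 3 of 4. *sFRP-1* (dd_Smed_v4_13985), which encodes a secreted Frizzled-related Wnt inhibitor, was expressed in 6 of 11 muscle cells (54.5%, interval 23.4% to 83.3%) with lowest, median and highest cells at 0, 254 and 5079 cpm, and had no read in non-muscle cells, and at 50000 reads per cell it was expressed in 6 muscle and 0 non-muscle cells. *notum* (dd_Smed_v4_24180), an enzyme that inactivates Wnt proteins and marks the anterior pole, was expressed in 4 muscle cells, r01_370, r01_430, r01_514 and r01_515, at 2629, 2062, 52 and 154 cpm, and in no non-muscle cell. Cells r01_370, r01_430 and r01_515 were also the 3 cells with *FoxD*. *wnt2*, a ligand with a pre-pharyngeal pattern, was expressed in 4 of 11 muscle cells and 0 of 11 non-muscle cells, and *wntA* (dd_Smed_v4_4877), named as a ligand although the best human match given for the contig is a subunit of AMP-activated protein kinase, in 8 of 11 muscle cells and 7 of 11 non-muscle cells, with 269 cpm in muscle, against 60.9 cpm in non-muscle cells. Without r01_400 and r01_430 the muscle level of *wntA* was 177 cpm, and without r01_431 its non-muscle level was 22.6 cpm. The receptor *fz5/8-4* (dd_Smed_v4_11823) was expressed in 10 muscle and 3 non-muscle cells, with 0, 991 and 3066 cpm in the lowest, median and highest muscle cell, against 0, 0 and 772 cpm in non-muscle cells, and 92% of the non-muscle reads were those of cell r01_441. The receptor *fz4-4* had 746 cpm in muscle, against 58.6 cpm in non-muscle cells, in 9 and 7 cells. The other anterior tip receptor, *fz5/8-3* (dd_Smed_v4_16571), went the other way. It was expressed in 3 of 11 muscle cells (27.3%, interval 6.02% to 61%), r01_370, r01_390 and r01_515, and in 9 of 11 non-muscle cells (81.8%, interval 48.2% to 97.7%), at 201 and 396.4 cpm. The intervals of both shares overlap. At 50000 reads per cell, 3 muscle and 6 non-muscle cells expressed it. The share of cells was lower in muscle within both ranges of cell numbers, but the level was not. Within r01_370 to r01_441 *fz5/8-3* had 96.5 cpm in muscle and 518 cpm in non-muscle cells. Within r01_453 to r01_525 it had 579.8 and 352 cpm, with all muscle reads of that range in cell r01_515. Without that cell the muscle level over all cells was 81.6 cpm.

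Transcription factors of the anterior pole were likewise found in muscle. *FoxD* (dd_Smed_v4_23249), a forkhead gene needed to form the anterior pole, reached 10286, 395.2 and 7589 cpm in muscle cells r01_370, r01_430 and r01_515 and had no read in the other 19 cells. *zic-1* (dd_Smed_v4_22585), a zinc finger gene of the pole, was expressed in 6 muscle cells at up to 2035 cpm and had no read in non-muscle cells. *zic-2* (dd_Smed_v4_15531) was expressed in 9 of 11 muscle cells and 2 of 11 non-muscle cells, at 350.3 and 34.4 cpm, with 95.9% of the non-muscle reads in r01_431. *prep* (dd_Smed_v4_8606), a homeobox gene of the anterior, was the factor shared by both classes: it was expressed in 8 of 11 muscle cells and 10 of 11 non-muscle cells, with 0, 363 and 2739 cpm in the lowest, median and highest muscle cell, against 17, 305 and 1079.6 cpm in non-muscle cells. The Hox genes *lox5a*, *Post-2c* and *hox4b*, all posterior, had 2, 0 and 7 reads in muscle and 1, 0 and 2 reads in non-muscle cells, so that they were not detectable at this depth beyond 1 muscle cell with *hox4b*. Of the remaining anterior mRGs, *CSMD1* was expressed in 3 muscle cells, with 82.5% of the reads from cell r01_430, and *DNAJB13*, a co-chaperone, in 5, both in no non-muscle cell. *EFR3* had 106 and 41.7 cpm, in 7 and 3 cells, or 45.5 cpm in muscle without r01_400 and r01_430 and 25.9 cpm in non-muscle cells without r01_421. *IGFALS*, a posterior gene, had 567.5 cpm in muscle, against 97.8 cpm in non-muscle cells, and cell r01_453 gave 82.7% of the non-muscle reads. Without it the non-muscle level was 18.4 cpm.

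**Figure D3:**
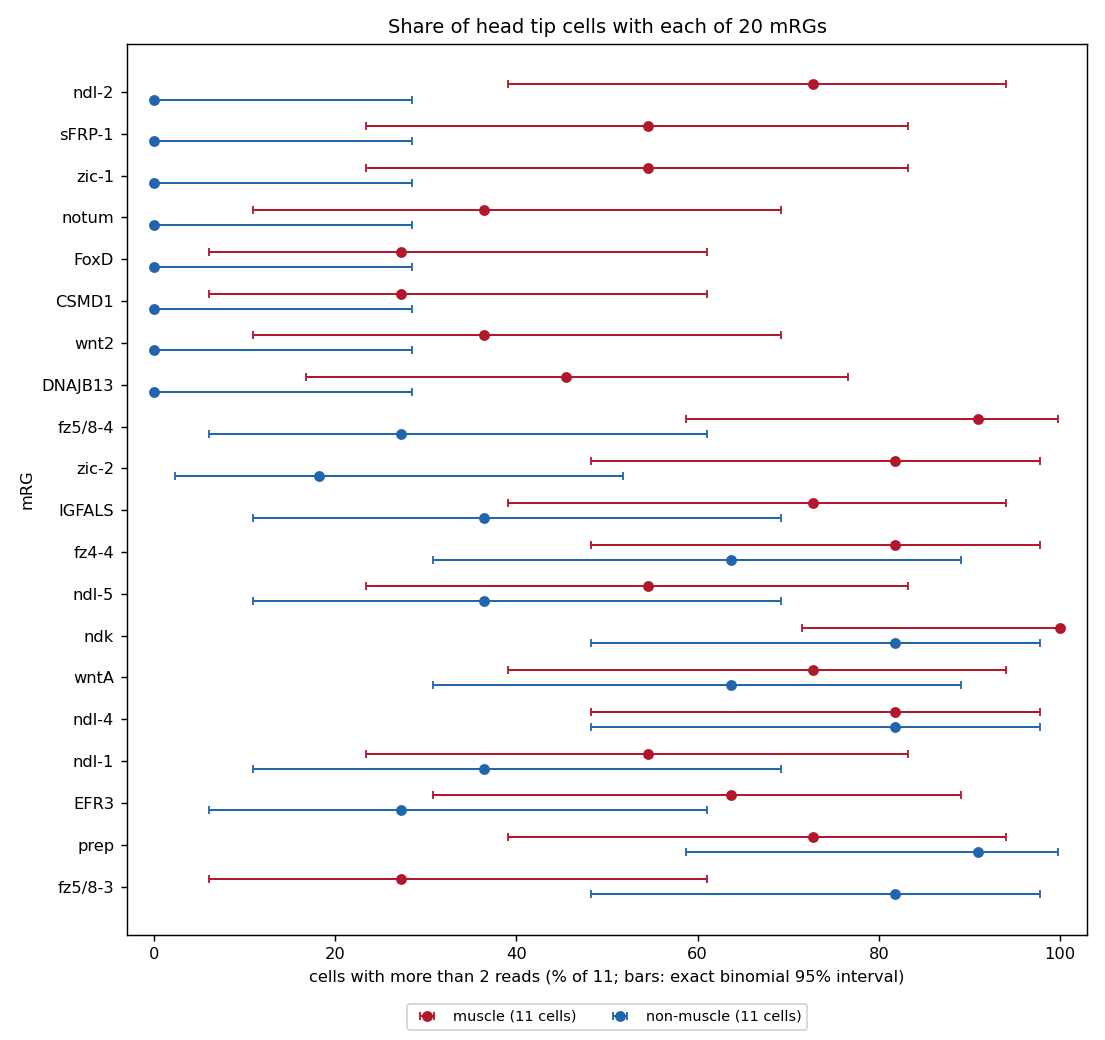
Share of the 11 muscle (red, upper point) and 11 non-muscle cells (blue, lower point) with more than 2 reads of 20 mRGs, with exact binomial 95% intervals for counting error. From the top, 8 mRGs were in no non-muscle cell, and at the bottom *prep* and *fz5/8-3* were in more non-muscle than muscle cells, and for most genes the intervals of the classes overlap.

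Cell adhesion molecules differed between the classes by member. Of 23 contigs, 15 could be compared, 7 were at least 4-fold higher in muscle and 2 in non-muscle cells (18.7% of all compared transcripts each way, so the non-muscle count was near that share), and 4 and 3 of 11 without r01_400 and r01_430. Of the 15, 3 had no read in non-muscle cells and 1 had none in muscle cells, so at least these passed the filter through 1 class alone. The list had a median log2 ratio of 1.50 that was 6.17 without r01_453 and -1.33 within the cells numbered r01_453 to r01_525. Over all compared transcripts the medians were 0.22, 0.29 and -0.58 in the same order. *NCAM1* (dd_Smed_v4_7422), an immunoglobulin-type adhesion molecule, was expressed in 8 of 11 muscle cells and 0 of 11 non-muscle cells, at 421.2 and 0.282 cpm. *LRIG2* (dd_Smed_v4_11266), a transmembrane protein with leucine-rich repeats, was expressed in 7 muscle cells at 326 cpm and had no read in non-muscle cells. The integrins were split between the classes. *ITGAV* (dd_Smed_v4_11655) had 318 cpm in muscle, against 13.8 cpm in non-muscle cells, the non-muscle reads all from cell r01_453, whereas *ITGA3* (dd_Smed_v4_8943), which has an epidermal pattern by in situ hybridization, had 3.3 and 206 cpm, in 1 and 7 cells, or 127 cpm in non-muscle cells without r01_474. The protocadherin *PCDH9* (dd_Smed_v4_7930) was the clearest on the non-muscle side: it had no read in muscle cells and was expressed in all 11 non-muscle cells, cell r01_453 included, with 24.3, 196 and 779 cpm in the lowest, median and highest cell. Ion channels were sparse. Of 8, 3 could be compared, all at least 4-fold higher in muscle (18.7% of all compared transcripts were), but without r01_400 and r01_430 it was 1 of 2 compared. Of the 3, 2 had no read in non-muscle cells and so passed the filter through muscle cells alone, and the count is no evidence of a difference. The proton channel *HVCN1* was expressed in 4 of 11 muscle cells and 0 of 11 non-muscle cells.

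The CNS and epidermis lists by in situ pattern had members on both sides. Among the 61 transcripts with CNS signal, 40 could be compared, 14 were at least 4-fold higher in muscle and 8 in non-muscle cells (18.7% of all compared transcripts each way, so the non-muscle count was near that share), with a median log2 ratio of 1.04. Of the 40, 4 had no read in non-muscle cells and 4 had none in muscle cells, so at least these passed the filter through 1 class alone. The summed level of the CNS list was 2396 to 15634 cpm in muscle cells, the highest in cell r01_370, against 596.2 to 13156 cpm in non-muscle cells, the highest in cell r01_453. Among 14 compared transcripts with epidermal signal, 6 were at least 4-fold higher in muscle and 4 in non-muscle cells (18.7% of all compared transcripts each way), with a median log2 ratio of 0.83. Within the cells numbered r01_453 to r01_525 the counts were 1 and 5 of 9. The list median was -3.76 there, against -0.58 for all compared transcripts in that range. Over all cells, those higher in non-muscle cells were *ITGA3*, *HELZ2*, *CASKIN1* and *DENND1C*. Those higher in muscle included *BNC1* (dd_Smed_v4_18947), of which 1 cell, r01_440, gave 84.9% of the muscle reads, and *ROCK2*, with 82.1% from cell r01_430. Of 9 compared transcripts with gut signal, none was at least 4-fold higher in muscle and 3 were in non-muscle cells, and without r01_453 it was 1 and 2. Of all compared transcripts 18.7% were so each way, and with 9 members these counts cannot be set apart from that share. *EXOC6B* was one of the 3 gut transcripts higher in non-muscle cells, with 44.3 cpm in muscle, against 232 cpm in non-muscle cells, in 3 and 7 cells. Its level was 8.64 cpm in muscle without r01_430 and 133 cpm in non-muscle cells without r01_453. The 12 transcripts at the far end of the second principal component from the neoblast markers were at least 4-fold apart in 2 of 11 cases, 1 in each direction (18.7% of all compared transcripts each way), and 9 were within 4-fold. Without r01_400 and r01_430, none was at least 4-fold higher in muscle and 6 were in non-muscle cells, with a median log2 ratio of -2.03, against 0.17 for all compared transcripts. Within the cells numbered r01_453 to r01_525 the counts were 1 and 8, with a median of -3.05, against -0.58 for all compared transcripts in that range. The exceptions were a further collagen contig, *COL24A1* (dd_Smed_v4_702), expressed in 11 of 11 muscle cells and 8 of 11 non-muscle cells at 4326 and 214 cpm, or 835 cpm in muscle without r01_400 and r01_430, which is under 4-fold, and the transporter *SLC16A-5* (dd_Smed_v4_11486), with no read in muscle and 487.2 cpm in 9 non-muscle cells.

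Outside the lists, the largest ratios belonged to transcripts that the sources leave unnamed. On the muscle side, dd_Smed_v4_1070 had 3995 cpm in muscle, against 0.282 cpm in non-muscle cells, or 1179 cpm in muscle without r01_400 and r01_430, and dd_Smed_v4_6915 had 5050.3 and 1.41 cpm, both in all 11 muscle cells. On the non-muscle side, dd_Smed_v4_5958 had 0.55 cpm in muscle and 6537 cpm in non-muscle cells, and dd_Smed_v4_343 had 1.92 and 11911 cpm, the non-muscle level being 6979 cpm without r01_464, each in 9 non-muscle cells. Among 54 compared transcripts that only the study's gene tables name, no transcript reached 8 of 11 muscle cells at 4-fold, and 4 did so on the non-muscle side. They were *UCHL5*, a deubiquitinase, with no muscle read and 149 cpm in non-muscle cells, *PDIA4*, a protein disulfide isomerase, with no muscle read and 145 cpm, or 49.9 cpm without r01_474, *ABHD12*, a lipase, with 0.275 and 56.1 cpm, and *MTR*, methionine synthase, with 49.2 and 318 cpm, the muscle level being 21.9 cpm without r01_410.

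The same ratio could be formed in 8 other regions, regions 3 to 10, with 98 muscle and 51 non-muscle cells, since region 2 had no non-muscle cell. With 1 region against 8 the smallest one-sided p is 0.111, so no test was made and nothing below is shown to be particular to the head tip. The ratio of the summed muscle markers was 8.71 on the log2 scale in the head tip, against 2.55 to 7.39 in the other regions, and that of the epidermal lineage markers was -6.34, against -6.55 to -5.09. The head tip had the highest of the 9 muscle marker ratios, with 83.4 cpm of these markers in its non-muscle cells, and its epidermal ratio lay within the range of the others. *SMEDWI-1* had a ratio of 8.74 in the head tip, against -0.58 to 5.21 elsewhere, with 4 of the 8 regions below 0. The muscle side was alike, with *SMEDWI-1* in 8 of 11 muscle cells in the head tip and 73 of 98 (74.5%) elsewhere, at 790.2 cpm, against 248 to 1235 cpm. The non-muscle side differed more, with 0 of 11 cells in the head tip and 28 of 51 elsewhere (54.9%, interval 40.3% to 68.9%), at 0.846 cpm, against 30.9 to 1182 cpm. At 50000 reads per cell the counts on the non-muscle side were 0 of 11 and 26 of 51. Region 6 came closest to the head tip, with *SMEDWI-1* in 1 of 9 non-muscle cells.

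Some anterior mRGs, but not all, were expressed in a larger share of non-muscle cells in the head tip than elsewhere. *ndk* was expressed in 9 of 11 non-muscle cells in the head tip and 4 of 51 elsewhere, *ndl-4* in 9 of 11 and 4 of 51, *fz5/8-3* in 9 of 11 and 2 of 51, and *prep* in 10 of 11 and 12 of 51. The contrast was smaller for *ndl-5*, in 4 of 11 and 10 of 51, *ndl-1*, in 4 of 11 and 6 of 51, *fz5/8-4*, in 3 of 11 and 7 of 51, and *zic-2*, in 2 of 11 and 6 of 51. *sFRP-1* and *notum* were in 0 of 11, and in 2 and 5 of 51 elsewhere. At 50000 reads per cell the non-muscle counts were 7 of 11 and 3 of 51 for *ndk*, and 9 of 11 and 3 of 51 for *ndl-4*. They were 6 of 11 and 2 of 51 for *fz5/8-3*, and 8 of 11 and 10 of 51 for *prep*. In muscle, *ndk* was expressed in 11 of 11 head tip cells and 7 of 98 elsewhere, and *ndl-4* in 9 of 11 and 3 of 98. *ndk* and *ndl-4* were thus seen in a larger share of head tip cells than of cells elsewhere in both classes. For muscle this is bound to their choice, since the authors compared these muscle cells with posterior ones to find mRGs. The ratio between the classes in the head tip, 1.90 for *ndk* and 1.18 for *ndl-4*, lay inside the range of the other regions, -4.64 to 6.73 and -6.37 to 2.76. The ends of these ranges rest on few cells. For *ndk* they came from 2 of 11 non-muscle cells in region 7 and 1 of 13 muscle cells in region 8. For *ndl-4* they came from 1 of 3 non-muscle cells in region 3 and 2 of 23 muscle cells in region 5. These ranges thus say little about a class difference elsewhere. *ndl-2* was found in none of the 51 non-muscle cells and in 4 of 98 muscle cells elsewhere. *notum* was expressed in 2 of 98 muscle and 5 of 51 non-muscle cells elsewhere, with a ratio of 8.72 in the head tip, against -4.52 to 2.43. *FoxD* was not confined to the head tip, with 15 of 98 muscle and 1 of 51 non-muscle cells elsewhere. Its ratio was 10.04 in the head tip, against -0.53 to 8.79, and in region 8 it was expressed in 5 of 13 muscle cells. *wntA* and *IGFALS* were higher in muscle in all 9 regions.

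**Figure D4:**
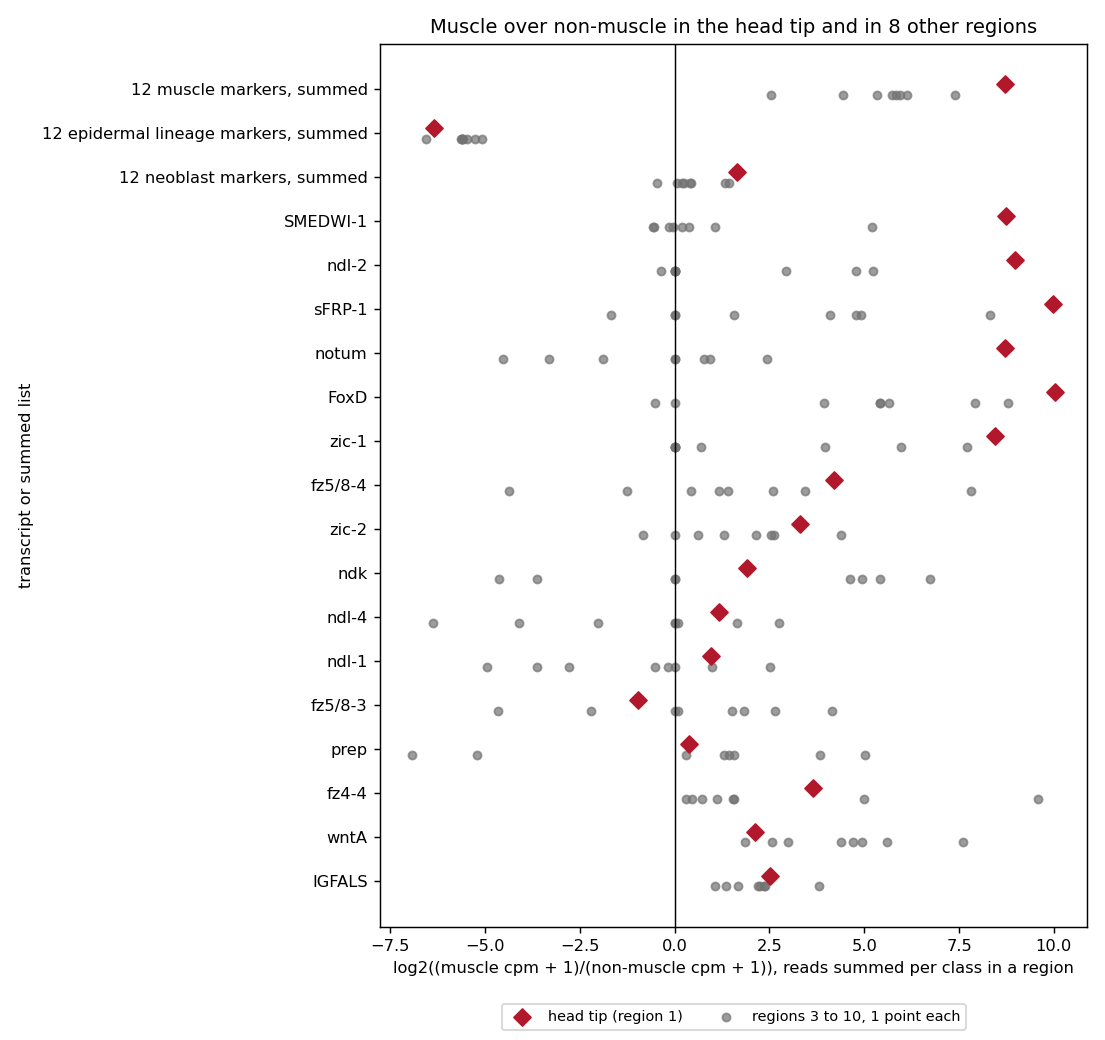
Log2 ratio of muscle over non-muscle, with reads summed per class in a region, for the head tip (red diamonds) and regions 3 to 10 (grey points, 1 per region), for 3 summed marker lists and 16 transcripts. The head tip is highest for *SMEDWI-1* at 8.74, *ndl-2*, *sFRP-1*, *notum*, *FoxD* and *zic-1*, and lies within the other regions for *ndk*, *ndl-4*, *ndl-1*, *fz5/8-3* and *prep*, where the ends of the range rest on few expressing cells.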

How the data were processed

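The values are raw read counts per transcript that the authors deposited for 177 single cells. Per the study's methods, SmartSeq2 libraries were sequenced with reads of 80 and 40 bases, trimmed with cutadapt, mapped to the dd_Smed_v4 transcriptome with Bowtie and summed per isotig, ribosomal and mitochondrial transcripts were removed, and libraries that expressed under 1000 transcripts were dropped. The submitters' processing notes also name CASAVA 1.7.0. Without molecular identifiers, a read is not a molecule. The authors' differential expression tables (log2 ratios with bounds and Z-scores of anterior against posterior muscle cells) were not used.

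Reads were summed over the 11 cells of each class and scaled to cpm. A transcript was compared if 3 or more of the 22 cells held over 2 of its reads (9586 of 26560), by log2((muscle cpm + 1)/(non-muscle cpm + 1)), a scale that understates the difference of low transcripts. A class without reads was set at 3 counts over the class for a fold, given as a lower bound. Cells of a class count as 1 sample, so no p-value was computed across transcripts. Named genes were list members at least 4-fold apart and expressed in at least 4 of 11 cells of the higher class, all anterior, FGFRL and Hox mRGs, and outside the lists the most extreme transcripts expressed in at least 8 cells. Gene names come from the study's gene tables. Members and lists were chosen with earlier results of these data known. Alternatives covered scaling (TMM of edgeR 4.0.16, size factors of DESeq2 1.42.0, means over cells), the pseudocount, the filter, the fold, thinning to 50000 reads, the range of cell numbers, each cell left out and, added after the data were seen, r01_453 or r01_400 and r01_430 left out. Versions were R 4.3.3, scipy 1.17.1, pandas 2.3.3, numpy 2.4.6 and Python 3.11.15. The ratios were checked on simulated counts.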

Additional observations from a re-analysis of the deposited data

How the results depend on the processing

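The medians of the muscle, epidermal lineage and neoblast markers kept their sign in every alternative run, whereas counts and sizes moved. Of 84 named genes at least 4-fold apart, 80 kept their sign in all 12 settings and 62 stayed at least 4-fold apart in all of them. TMM factors moved the median log2 ratio of all compared transcripts by -0.33 and size factors by -0.28, so that ratios near 0 have no firm sign. At least 4-fold higher were 1003 transcripts in muscle and 1004 in non-muscle cells with a pseudocount of 10 cpm, 1112 and 1088 of 6890 after thinning to 50000 reads, and 3348 and 3084 without a filter. With a 2-fold limit the counts were 3227 and 2691, and with an 8-fold limit 1041 and 1299, the order being reversed. Within r01_370 to r01_441 the 4-fold counts were 1800 in muscle and 985 in non-muscle cells, and within r01_453 to r01_525 they were 857 and 2351, so the balance turned between the ranges. Transcripts without overlap on the non-muscle side numbered 11 after thinning and 131 without r01_453.

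With a pseudocount of 10 and of 0.1 cpm, the median log2 ratio was 7.62 and 10.47 for the muscle markers, -5.67 and -10.22 for the epidermal lineage markers, and 3.64 and 10.16 for the ion channels. It was 2.44 for the neoblast markers with 10 cpm. Thinning gave 9.11 for the muscle markers, 5.26 for the mRGs outside the Wnt, FGFRL and Hox families and 2.70 for the pharynx list. Within r01_370 to r01_441 the medians were 10.50 for the muscle markers, 6.72 for the neoblast markers, 2.49 for the pharynx list and 6.28 for the adhesion molecules. Within r01_453 to r01_525 they were -3.05 for the list opposite the neoblast markers, 1.24 for the other mRGs, -3.76 for the epidermis list, -1.95 for the gut list, -1.61 for the pharynx list and -1.33 for the adhesion molecules, and *KIRREL3* (dd_Smed_v4_13803) turned to -3.78. The median over all compared transcripts was itself 0.37 within r01_370 to r01_441 and -0.58 within r01_453 to r01_525, so the lists moved together with the rest. Without a filter the other mRGs had 1.33. In alternatives chosen after seeing the data, without r01_453 the other mRGs had 4.87 and the adhesion molecules 6.17, and without r01_400 and r01_430 the muscle markers had 8.89, the other mRGs 2.03 and the ion channels 4.28. The cause of these shifts was not tested.

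Leaving out 1 cell at a time gave 1649 to 1910 transcripts at least 4-fold higher in muscle and 1654 to 1916 in non-muscle cells, 29 to 37 and 18 to 131 without overlap, and medians of 3.68 to 7.50 for the Wnt mRGs, 2.61 to 5.63 for the other mRGs, -0.90 to 0.22 for the gut list, 0.76 to 6.17 for the adhesion molecules and 4.64 to 7.07 for the ion channels. Counting transcripts with at least 1 read gave medians of 4677 per muscle and 5717 per non-muscle cell, and thinning 2515 and 2855. No paired analysis was possible because the cell numbers are names and the classes share none. Depth limits what can be said of genes seen in 0 of 11 cells, and no result here covers variation between animals.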

Other observations

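Some transcripts were concentrated in the same 2 of the 11 muscle cells. They were chosen after their values were seen, and their part in the differences between the classes was not tested. *INX4* (dd_Smed_v4_3985), named after gap junction innexins, had 392.3 and 529 cpm in r01_400 and r01_430 and at most 7.84 cpm in the other 20 cells. A *DMD* contig (dd_Smed_v4_5325), a match to dystrophin, had 370.5 and 554.8 cpm in these muscle cells and no read in the other 9, while 7 non-muscle cells expressed it at up to 398.9 cpm.

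A few mRGs with a posterior pattern were read in single head tip muscle cells, also chosen after their values were seen. The receptor *fz4-1* (dd_Smed_v4_11650) had 739 cpm in r01_370, expressed in no other cell, and *wntP-2* (dd_Smed_v4_7326), a Wnt ligand, had 124 cpm in r01_515 alone among muscle cells. *wnt1* (dd_Smed_v4_28398), a posterior pole gene, had 21.8 cpm in r01_400 and 11.7 cpm in r01_430. Of the 20 posterior mRGs, 8 were expressed in some muscle cell and 6 in some non-muscle cell.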
